A study of Mus musculus with 10 samples.

Results

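The comparison described here was between mice homozygous for deletion of both TAAR enhancers (homo) and their wild-type counterparts (WT), over the whole transcriptome of the main olfactory epithelium (MOE). It used the 4 homo and the 3 WT libraries of the 10 in the series, and of the 24421 rows of the count table it tested 17197 genes, 17185 of them outside the trace amine-associated receptor (Taar) family. All mice were labelled C57BL/6 and were at postnatal day 14, while the study describes its mouse lines as being of mixed C57BL/6J and 129 background. WT mice carried no deletion, homo mice lacked TAAR enhancer 1 and TAAR enhancer 2 on both alleles, and the 3 heterozygous (het) libraries, with 1 deleted allele, entered the fit for the spread between libraries and are given beside the others. The double knockout came from 1 established line, made by CRISPR-Cas9 editing of enhancer 1 in zygotes that already carried the enhancer 2 deletion. An effect of the deletions and an effect of another change carried by this line cannot be told apart. RNA came from the whole tissue, and nothing in the labels says which libraries share a litter or a day, so p-values measure the spread between these libraries.

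The MOE lines the back of the nasal cavity. Its olfactory sensory neurons (OSNs) each express a single receptor gene, in most of them an odorant receptor (OR) and in a small population a TAAR, a receptor for volatile amines. Around the OSNs lie sustentacular cells, which support them and metabolise odorants, basal cells, which renew them, and Bowman's glands, which secrete mucus with odorant-binding proteins. Enhancers act on genes of their own neighbourhood, and in OSNs they set how often a receptor gene is chosen. The question addressed here is whether any gene outside the Taar family differed between the genotypes, and how small a difference these libraries could bound. In RNA from whole tissue, fewer cells of a type and less RNA per cell cannot be told apart.

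Library totals lay between 21423861 and 27712948 counts, with 19078 to 19477 genes detected and a common biological coefficient of variation of 13.9%. Levels in CPM are counts scaled to the library total and its TMM factor, which lay between 0.983 and 1.03, and they are not corrected for gene length. Both sexes were present. Over 4 Y-linked genes the counts were 5252 in WT-1, 6636 in homo-2 and 6053 in homo-3, while none of the other WT and homo libraries exceeded 3. Libraries of the same genotype differed by more than sampling noise in every pair (chi-square divided by its degrees of freedom, 14.5 to 49.4).

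Some libraries stood apart in RNA of other tissues. The summed level of 9 secretion genes of salivary and lacrimal glands was 2039 CPM in WT-1 and between 26.2 and 36.8 CPM in the other 9 libraries, and all 9 genes were highest in WT-1. Bpifa2, the parotid secretory protein, had 34847 counts in WT-1 and at most 60 in any other library. The second set comprised 5 genes from a list for inhibitory neurons of the forebrain and olfactory bulb, Gad1, Slc32a1, Slc6a11, Gria1 and Th. They are called inhibitory neuron markers here, although Slc6a11 and Gria1 need not be confined to such neurons. Their summed level was 0.713, 3.52 and 0.558 CPM in WT-1 to WT-3. It was 11.5, 0.675, 10.7 and 22.4 CPM in homo-1 to homo-4, and 0.308, 0.675 and 6.76 CPM in the het libraries. Thus homo-1, homo-3, homo-4 and het-3 were high, and homo-2 lay within the WT range. Other genes of the 12 on the inhibitory neuron list were not specific in this tissue: Gad2, Dlx5 and Dlx6 were above 10 CPM in all 10 libraries. Slc32a1, the vesicular transporter of inhibitory neurons, had no count in WT-3, het-1, het-2 and homo-2. Opalin, a defining gene of oligodendrocytes, had no count in any library. Both marker sets, and the set of 5 gland secretion genes plotted beside them, were put together after the data had been seen.

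**Figure D1:**
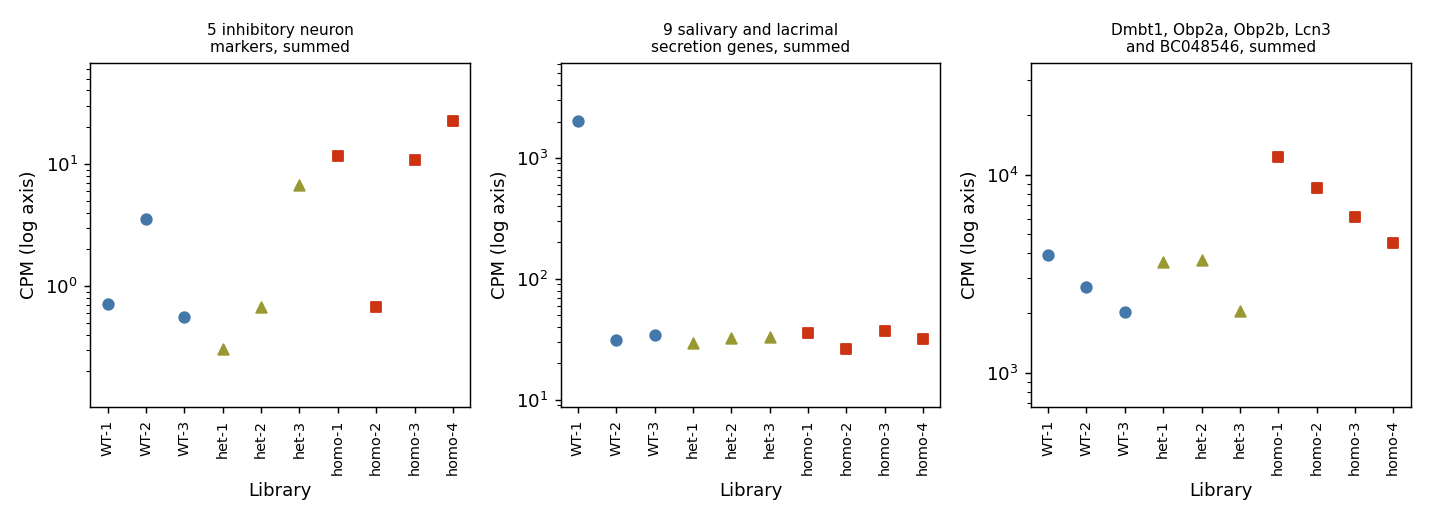
Summed level (CPM, log axis) in each of the 10 libraries of 5 inhibitory neuron markers, of 9 salivary and lacrimal secretion genes, and of the gland secretion genes Dmbt1, Obp2a, Obp2b, Lcn3 and BC048546. Circles are WT, triangles het and squares homo. WT-1 stands alone in the middle panel at 2039 CPM, homo-2 lies with the WT libraries in the left panel, and in the right panel, whose 5 genes were chosen because they were higher in homo, so that the separation follows from the choice, homo libraries lie at 4489 to 12242 CPM and WT libraries at 2012 to 3921 CPM.

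The targeted family was checked against the labels. The 14 olfactory Taar genes together had 915, 901 and 850 counts in the WT libraries and 2, 5, 3 and 5 counts in the homo libraries. Each homo library was thus near the floor, whereas the 3 het libraries had 738 to 862 counts. Taar6 is shown as an example because it had the smallest p of the transcriptome. It lies at chr10:23984609-23985646 on mm10 and its counts were 135, 118 and 111 for WT mice against 0, 0, 0 and 1 for homo mice. Against a floor of 3 counts per library it was at least 37.9-fold lower. Stx7, the next gene tested past the far end of the cluster, encodes a syntaxin of endosomal membrane fusion, and its values are given with the neighbouring genes below. The sequences just before their annotated starts, taken from RefSeq on GRCm38.p6 and printed 5′ to 3′ on the strand of the gene, contrast a gene that lost its mRNA with the closest one beyond it that did not. Capitals mark the start codon of Taar6. All 11 tested Taar genes with an entry begin at their start codon there, so their windows need not hold the true promoter.

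Taar6 (chr10:23985644-23985896, minus strand): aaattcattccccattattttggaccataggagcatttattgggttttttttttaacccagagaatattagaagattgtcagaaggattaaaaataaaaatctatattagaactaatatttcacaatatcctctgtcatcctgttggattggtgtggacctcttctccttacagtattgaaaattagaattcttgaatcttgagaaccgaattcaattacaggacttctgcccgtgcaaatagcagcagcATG
Stx7 (chr10:24149039-24149288, plus strand): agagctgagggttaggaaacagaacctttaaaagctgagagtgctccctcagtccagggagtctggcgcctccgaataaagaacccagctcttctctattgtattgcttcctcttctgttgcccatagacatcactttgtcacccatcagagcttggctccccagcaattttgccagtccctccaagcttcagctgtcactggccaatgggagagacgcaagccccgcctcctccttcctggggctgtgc

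The 250 bases before the start held 34% G and C for Taar6 and 54% for Stx7. Over the 11 Taar genes with an entry the share ran from 26.4% to 47.6% with a median of 34.4%, and the median over all 32851 windows was 52.4%. The homeodomain core TAATTA occurred on either strand in 1 of the 11 Taar windows (9.09%) and in 4.84% of all windows. The EBF motif, TCCC and GGGA with any 2 bases between them, occurred in none of the 11 and in 0.779% of all windows.

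Outside the Taar family no gene changed between homo and WT mice at an adjusted p under 0.05. Of all genes tested, 12 (0.0698%) passed in edgeR's quasi-likelihood test with Benjamini-Hochberg adjustment, and all 12 were Taar genes that fell, with adjusted p from 1.68e-08 to 0.00046. Among the 17185 other genes the count was 0 with edgeR and limma and 2 with DESeq2, S100a8 and Lmbr1l, each with an adjusted p of 0.037 there. The smallest adjusted p with edgeR belonged to Sez6l (0.288), and 3 genes, Sez6l, Lmbr1l and S100a8, lay under 0.5. The largest unadjusted p among the Taar genes called was 3.21e-07, the smallest among other genes was 0.000218, and a further gene would have needed 3.78e-05. A block for replicate number gave 7 calls outside the family, though what the numbers stand for is not stated. In that fit homo-4 was alone in its block and added nothing to the comparison with WT. The count outside the family rose to 10 with the inhibitory neuron marker level as a term, and to 17 when homo-1, homo-3, homo-4 and het-3 were all left out, which leaves homo-2 as the lone homo library with a spread assumed to be like that of the others.

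Small unadjusted p-values were fewer than a uniform distribution gives in this fit, but not in every other. An unadjusted p under 0.05 was found for 414 genes (2.41% of genes tested, where a uniform distribution gives 5%), of which 232 were higher (1.35%) and 182 lower (1.06%) in homo. Without the Taar family 402 remained, 232 higher and 170 lower. The share of genes rose from 5.78% for p below 0.1 to 12% for p above 0.9. The libraries did not overlap between the genotypes for 614 genes (3.57%), with homo higher in 306 (1.78%) and lower in 308 (1.79%), and the latter included the 12 Taar genes. Leaving out homo-3 moved the count of genes with an unadjusted p under 0.05 to 685 (3.99%). With the inhibitory neuron marker level as a term it was 1237 (7.19%), and without homo-1, homo-3, homo-4 and het-3 it was 1437 (8.16%), both above the uniform share.

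**Figure D2:**
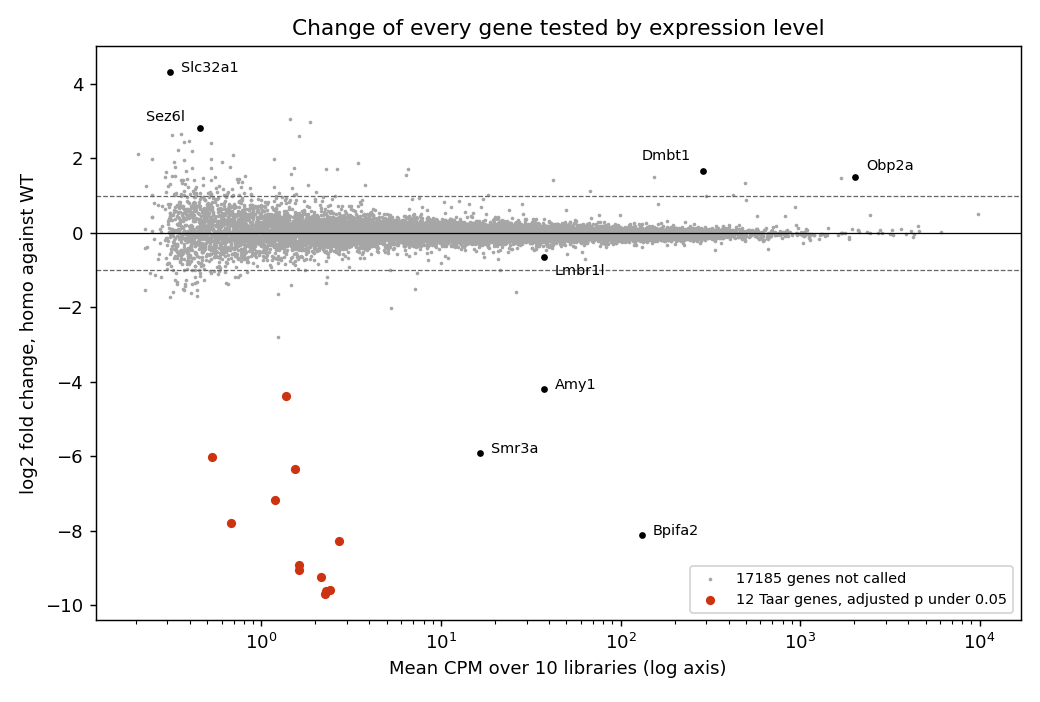
Log2 fold change of homo against WT for each of the 17197 genes tested (vertical axis) by mean CPM over 10 libraries (log axis). Red points are the 12 Taar genes with adjusted p under 0.05, whose fitted values depend on the prior count where homo libraries had no count; dashed lines mark 2-fold. The spread narrows from left to right, and Bpifa2, Smr3a and Amy1 far below 0 are genes with a high level in WT-1 alone.

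Fold changes outside the family were centred on 0 and small. The median log2 fold change was 0, with the middle 50% of genes between -0.08 and 0.085 over all genes tested and a robust SD of 0.122. The median standard error was 0.13, about as large as this spread, so that most fitted changes were of the size of their error. Fitted changes exceeded 1.5-fold in 560 genes and 2-fold in 161. A 95% confidence interval lay entirely within 1.5-fold of no change for 12673 genes (73.7%), which held 93.6% of the counts. It lay within 2-fold for 15275 genes (88.9%), with 96.1% of the counts. A change of more than 2-fold remained inside the interval for 1910 genes, of which 1273 had a mean under 1 CPM and 226 were OR genes. Leaving out 1 library lowered the share within 1.5-fold to between 66.9% and 72.8%.

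How far a change could be bounded depended on the expression level. In the lowest class, 0.1 to 1 CPM, none of 1452 genes was bounded within 1.5-fold and 12.3% within 2-fold. At 1 to 10 CPM, with 4472 genes, the shares were 40.9% and 87.6%. At 10 to 100 CPM they reached 95.8% and 99.3% of 8816 genes, and at 100 to 1000 CPM 98.4% and 99.4% of 2384 genes. A gene with the median error of its class would have needed a 6.4-fold change for a call at 0.1 to 1 CPM, 2.39-fold at 1 to 10 CPM, 1.55-fold at 10 to 100 CPM and 1.46-fold at 100 to 1000 CPM. In the lowest class, which held 0.0873% of the counts, changes of several fold would thus not have been detectable at this depth, and 119 of the 161 genes with a fitted change beyond 2-fold were in it. An unadjusted p under 0.05 was more frequent in that class (5.51%) than at 1 to 10 CPM (3.38%), 10 to 100 CPM (1.6%) and 100 to 1000 CPM (1.17%), beside 2.41% over all genes. Noncoding genes were bounded less often, in that 67.7% of 628 long noncoding RNA genes and 90.3% of 15702 protein-coding genes lay within 2-fold.

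**Figure D3:**
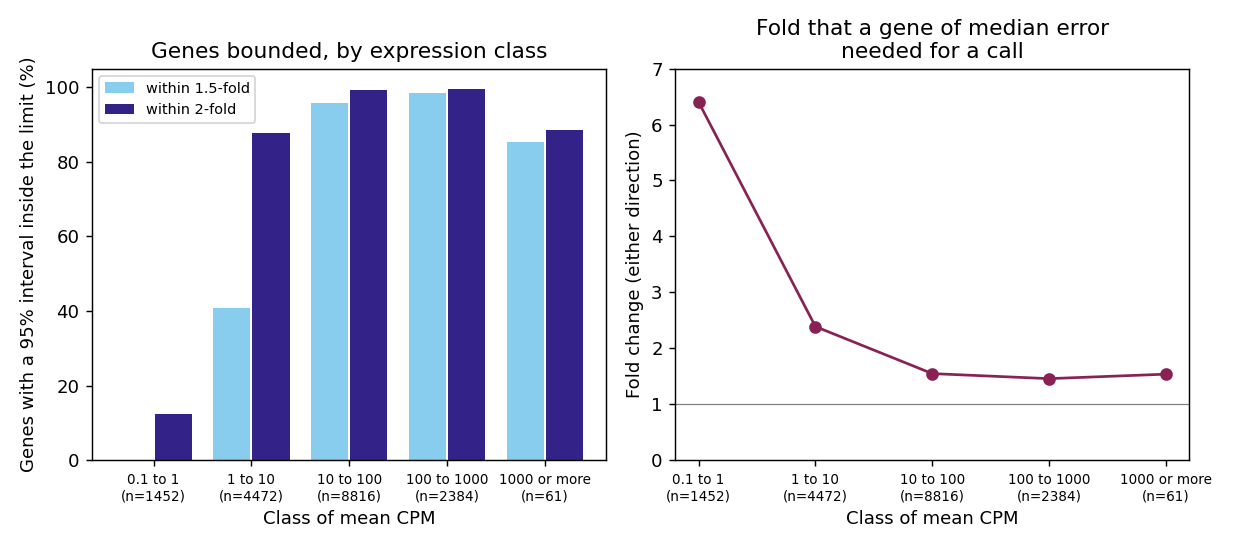
Left, percent of genes outside the Taar family whose 95% interval lay within 1.5-fold (light bars) or 2-fold (dark bars) of no change, by class of mean CPM. Right, the fold change that a gene with the median error of its class needed to be called; it falls from 6.4 in the lowest class to 1.46 at 100 to 1000 CPM and is 1.54 in the highest class.

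The highest class, 1000 CPM or more, broke this order. Of its 61 genes, 85.2% were bounded within 1.5-fold and 88.5% within 2-fold, and the 7 that were not bounded within 2-fold were Obp2a, Obp2b, Obp1a, Bpifb9a, Bpifb9b, Gm14744 and 5430402E10Rik, named after their values were seen. Obp1a, Obp2a and Obp2b encode odorant-binding proteins and the Bpifb9 genes secreted lipid-binding proteins of the nose. Bpifb9b was at 9273, 7225 and 6432 CPM in WT and at 11642, 18494, 7152 and 6411 CPM in homo libraries. Its groups overlapped, and its log2 difference was 0.52 ± 0.441 (SE). The near-identical Bpifb9a and Bpifb9b may share reads. By contrast, Cyp2a5, a cytochrome P450 of sustentacular cells, lay between 5554 and 6276 CPM in WT and between 5136 and 6789 CPM in homo libraries, a log2 difference of 0.03 ± 0.101. Omp, the marker of mature OSNs, lay between 4250 and 4702 CPM in WT and between 3705 and 4561 CPM in homo libraries (-0.12 ± 0.111). Eef1a1, a translation elongation factor, differed by 0.06 ± 0.0903. For these genes the groups overlapped.

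Of the 12 genes closest to the threshold on the higher side none passed it. They were chosen by the smallest p-values, so that small p-values in them are no evidence of their own. Sez6l, a membrane protein of neurons at chr5:112419151-112577185, was at 0.075, 0.117 and 0.129 CPM in WT and at 0.71, 0.405, 0.807 and 1.16 CPM in homo libraries. All homo libraries were above all WT libraries, at a low level (log2 difference 2.82 ± 0.682, edgeR adjusted p = 0.288). The het libraries were at 0.397, 0.59 and 0.161 CPM, also above the WT range. Adcy8, an adenylyl cyclase, Cpne6, a calcium-dependent phospholipid-binding protein of neurons, Trh, which encodes thyrotropin-releasing hormone, and Cacng5, a regulatory subunit of AMPA receptors, were likewise at low levels. Trh was at 0.113, 0.0782 and 0.129 CPM in WT and at 0.899, 0.18, 0.552 and 1.13 CPM in homo libraries. Its groups did not overlap, and homo-2 was closest to WT. Gfap, the intermediate filament of astrocytes and olfactory ensheathing cells, was at 1.46, 1.99 and 1.67 CPM in WT and at 3.41, 2.03, 4.29 and 3.8 CPM in homo libraries. Again homo-2 was the lowest of the homo libraries, and it was so in 7 of the 12 genes. The same library had the low level of inhibitory neuron markers given above. With that level as a term in the model, the log2 difference was 0.53 in place of 0.99 for Gfap, 1.13 in place of 2.66 for Trh, 0.94 in place of 2.09 for Cacng5 and 2.6 in place of 2.82 for Sez6l. None of them was called with that term (edgeR adjusted p of 0.432 for Sez6l and 0.715 for Gfap). The genes had been picked as higher in homo. Apart from homo-2, every homo library had a high marker level, and no WT library did. The term thus overlaps with genotype, and a smaller difference with it cannot tell marker level and genotype apart. What caused the smaller differences was not tested. With homo-2 as the lone homo library the difference was 1.88 for Sez6l, 0.24 for Gfap and 0.17 for Cacng5.

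Of 28 genes of Bowman's gland and nasal gland secretions none passed the threshold. An unadjusted p under 0.05 was found for 5 (17.9%, beside 2.41% over all genes tested), all higher in homo. The fitted difference was above 0 for 20 and below 0 for 8. The list was drawn up with earlier results of these data known. The genes described here are those with small p-values, with BC048546, which is not on that list, and Bpifa1, at a log2 difference of -0.02 ± 0.113, is an example of a gland gene without a difference of this size. Dmbt1, a mucin-like scavenger receptor of glandular secretions at chr7:131032053-131121630, was at 202, 154 and 109 CPM in WT and at 849, 393, 343 and 384 CPM in homo libraries. The groups did not overlap, and homo-1 was far above the other 3 homo libraries (log2 difference 1.66 ± 0.373, edgeR adjusted p = 1). The het libraries, at 171, 152 and 109 CPM, lay at the WT level. Lcn3, a lipocalin of nasal glands, was at 380, 342 and 229 CPM in WT and at 1397, 501, 770 and 541 CPM in homo libraries, again without overlap. Obp2b was at 1421, 952 and 603 CPM in WT and at 4571, 2724, 2121 and 1617 CPM in homo libraries, a log2 difference of 1.48 ± 0.44. Its neighbour Obp2a overlapped in 1 library, with 1587, 966 and 817 CPM in WT and 4483, 4377, 2346 and 1535 CPM in homo libraries (1.5 ± 0.478). BC048546, at 332, 303 and 254 CPM in WT and 943, 528, 521 and 412 CPM in homo libraries, did not overlap. Obp2a, Obp2b and Lcn3 lie close together on chromosome 2 (Obp2a at 25700043-25703326, Obp2b at 25737009-25740097 and Lcn3 at 25765569-25768099), and reads could be split between similar copies. The standard errors of Dmbt1, Lcn3, Obp2b, Obp2a and BC048546 lay between 0.268 and 0.478. The medians of the 2 highest classes were 0.0973 and 0.112. The library homo-2, low in inhibitory neuron markers, had the second highest summed level of the 5 genes, 8524 CPM. In a fit with a block for replicate number, Dmbt1, Obp2a, Obp2b and BC048546 were called (edgeR adjusted p from 0.00017 to 0.000216). There homo-4 was alone in its block and added nothing to the comparison with WT, and what the numbers stand for is not stated. Lcn3 was not called in that fit.

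The remaining genes with small p-values on the higher side had other functions. Bglap3, an osteocalcin-related gene, was at 15.8, 12.5 and 13.4 CPM in WT and at 27.6, 25.8, 19.4 and 18 CPM in homo libraries, with het libraries at 8.93 to 13.4 CPM. The groups did not overlap (log2 difference 0.71 ± 0.168, edgeR adjusted p = 0.757), whereas the copies Bglap and Bglap2, with which it can share reads, differed by -0.09 and -0.13. With a block for replicate number, a fit to which homo-4 again added nothing, Bglap3 was called (edgeR adjusted p = 0.00784). Slc6a12, a betaine and GABA transporter, was at 0.413, 0.469 and 0.515 CPM in WT and at 0.994, 1.04, 2.08 and 0.986 CPM in homo libraries. Ifit3, an interferon-induced antiviral protein, overlapped, with 6.94, 12.5 and 6.27 CPM in WT and 20.1, 11.5, 14 and 16.2 CPM in homo libraries. Without WT-2 it was called (log2 difference 1.22, edgeR adjusted p = 0.0434). The OR gene Olfr225 and BC021785 completed the 12, each with a mean under 1 CPM and without overlap.

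On the lower side, Lmbr1l and S100a8 came closest to a call. Lmbr1l, a membrane receptor-like protein at chr15:98903917-98918231, was at 56.8, 56.8 and 35.3 CPM in WT and at 33, 30.5, 28.6 and 35.7 CPM in homo libraries. WT-3 lay with the homo libraries, and the het libraries did so as well, at 33.2, 30.8 and 35.4 CPM. The log2 difference was -0.64 ± 0.141 (edgeR adjusted p = 0.398), and without WT-3 the gene was called (-0.83, edgeR adjusted p = 0.00214). S100a8, a calcium-binding protein of neutrophils at chr3:90668978-90670035, was at 6, 8.49 and 7.94 CPM in WT and at 3.6, 3.47, 3.23 and 4.72 CPM in homo libraries. The groups did not overlap (-0.99 ± 0.223, edgeR adjusted p = 0.414), and its partner S100a9 was at 8.85 to 15.5 CPM in WT and 7.43 to 10.3 CPM in homo libraries, with overlap. Pdcd5, linked to programmed cell death, was at 24.5, 26.2 and 21.8 CPM in WT and at 20.1, 13.9, 18.9 and 16.1 CPM in homo libraries. This was a small difference without overlap (-0.49 ± 0.128).

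The other lower genes were at low levels. Lsm2, a subunit of the Sm-like ring on spliceosomal RNA, was at 15.8, 7.94 and 9.23 CPM in WT and at 6.48, 5.99, 7.69 and 6.62 CPM in homo libraries. Arhgap9, a GTPase-activating protein of blood cells, was at 2.44 to 3.52 CPM in WT and 1.49 to 2.07 CPM in homo libraries. Kcnmb4os2, an antisense RNA whose reads cannot be told from those of Kcnmb4 where the strand setting is not stated, was at 2.53 to 2.7 CPM in WT and 0.9 to 1.76 CPM in homo libraries. None of these 3 overlapped, and all had edgeR adjusted p = 1. Scand1, Nupr1l, Gm1943, 4833415N18Rik, A930006I01Rik and the OR gene Olfr998 made up the rest, and the first of these was at 5.55, 2.42 and 2.1 CPM in WT and at 1.7, 0.765, 1.74 and 1.66 CPM in homo libraries, with WT-1 far above the others. Of the non-overlapping genes at 1 CPM or more, Xlr3b, an X-linked gene of a multicopy family, had the largest fold on the lower side. It was at 12.6, 10.6 and 5.32 CPM in WT and at 4.83, 0.36, 3.31 and 1.06 CPM in homo libraries, and 1700026J14Rik was at 1.21 to 2.06 CPM in WT and 0.663 to 0.986 CPM in homo libraries. From the lowest to the highest homo library, Xlr3b varied by a larger fold than its fitted difference between the groups (log2 difference -2.01 ± 0.685). Near-identical copies make its counts uncertain.

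**Figure D4:**
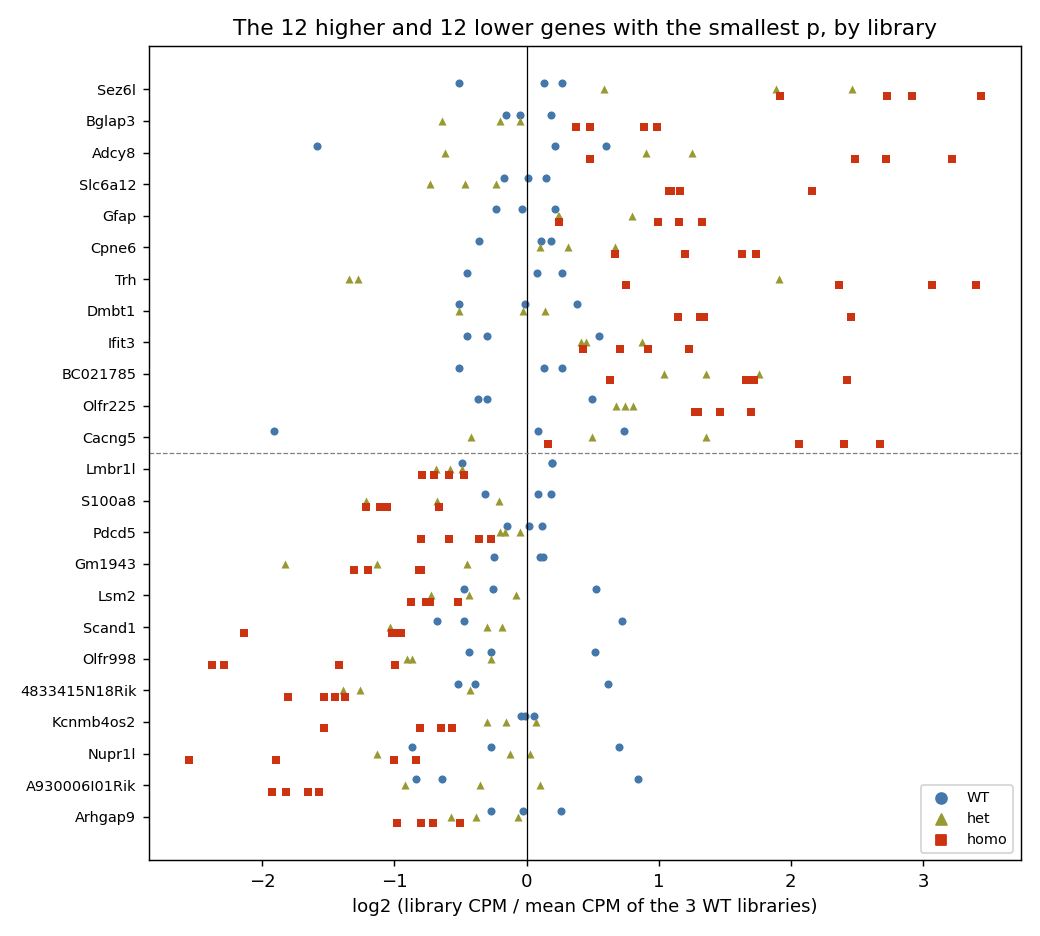
Level of each library relative to the mean of the 3 WT libraries (log2 scale) for the 12 genes with the smallest p among those higher in homo (above the dashed line) and the 12 among those lower (below it). Circles are WT, triangles het and squares homo; none of the 24 genes had an adjusted p under 0.05, and homo-2 is the leftmost square in 7 of the upper 12.

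For these 24 genes the het level was set beside both groups. Among the 12 higher genes the het mean lay nearer to WT for 8 and nearer to homo for 4. Among the 12 lower genes it lay nearer to WT for 7 and nearer to homo for 5. Bglap3 and Dmbt1 were among the former, with het means of 11.5 and 144 CPM beside 13.9 and 155 CPM in WT and 22.7 and 492 CPM in homo libraries. Lmbr1l and S100a8 were among the latter, with het means of 33.1 and 4.79 CPM, WT means of 49.6 and 7.48 CPM and homo means of 32 and 3.75 CPM. The het libraries took no part in choosing the genes, but they share the estimate of the spread.

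Genes with the largest fitted folds were described by the library in which each was highest. At a mean of 1 CPM or more, 42 genes outside the Taar family had a fitted change beyond 2-fold, 14 lower and 28 higher in homo. Of the 14 lower genes, 13 had their highest level in WT-1. These included Bpifa2, at 1307, 1.53 and 1.07 CPM in WT and 1.08 to 2.55 CPM in homo libraries, Smr3a, a submaxillary gland protein at 158 CPM in WT-1 and 0.429 to 1.62 CPM in the other WT and the homo libraries, and Amy1, salivary amylase, at 321 CPM in WT-1 and 4.97 to 8.1 CPM in those libraries. Their fitted log2 differences were -8.1, -5.9 and -4.18, with edgeR adjusted p = 1 for each. Without WT-1 the log2 difference of Bpifa2 was 0.28 and that of Smr3a 0.54. Of the 28 higher genes, 14 had their highest level in homo-4, 8 in homo-1, 5 in homo-2 and 1 in homo-3. The 5 in homo-2 included the Y-linked Kdm5d and Eif2s3y. Among the WT and homo libraries these were high only in WT-1, homo-2 and homo-3, so their difference moved with the make-up of the groups by sex. Those highest in homo-4 included Gad1, the enzyme of GABA synthesis, at 0.375 to 0.665 CPM in WT and 3.27, 0.36, 3.06 and 6.09 CPM in homo libraries, and Slc17a7, a vesicular glutamate transporter, at 0.488 to 0.86 CPM in WT and 1.23, 0.945, 2.29 and 5.28 CPM in homo libraries. Without homo-2, Gad1 was called (log2 difference 2.95, edgeR adjusted p = 0.0469), and with homo-2 as the lone homo library its difference was -0.56. Gad1 is among the markers by which the other homo libraries were left out, so the latter value follows from that choice. Slc38a3, a glutamine transporter, was at 1.21 to 1.46 CPM in WT and 1.53 to 4.16 CPM in homo libraries, with homo-2 lowest.

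Genes of the OSNs differed little. No member of any list outside the Taar family passed the adjusted threshold, and each list is described by its count at an unadjusted p under 0.05, which was 2.41% over all genes tested, and by its median log2 difference, which was 0 over all genes. Of 20 markers of mature OSNs none passed the unadjusted threshold, and the median was -0.041. The 16 markers of immature OSNs also held none (-0.047), as did the 19 genes of the olfactory signalling cascade (-0.023), the 26 regulators of receptor choice (-0.018) and the 20 genes of dorsal and ventral zones (0.013). Among 20 progenitor and basal cell markers there were 2, both lower, with a median of -0.016. Insm1, a transcription factor of neuronal progenitors, was at 123 to 172 CPM in WT and 104 to 128 CPM in homo libraries, and Sox2, a stem cell factor of basal and sustentacular cells, was at 89.2 to 97.9 CPM in WT and 77.3 to 86.2 CPM in homo libraries. The groups overlapped for Insm1 and not for Sox2. The 26 genes of apoptosis and endoplasmic reticulum stress held none (-0.021), and neither did the 20 activity-dependent genes (0.071).

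OR genes, the other receptor family, showed no shared shift. Of 1043 OR genes tested 15 were higher and 18 lower at an unadjusted p under 0.05, which is 3.16% beside 2.41% over all genes, and the median log2 difference was -0.021 with the middle 50% between -0.189 and 0.161. Most lay at 1 to 10 CPM, where 88.6% of 826 OR genes and 87.4% of 3646 other genes were bounded within 2-fold. Within 1.5-fold the shares in that class were 28.2% of OR genes and 43.8% of other genes. Over all 1043 OR genes 27.6% were bounded within 1.5-fold and 78.3% within 2-fold. Over all genes outside the Taar family these shares were 73.7% and 88.9%. At 10 to 100 CPM, 5 of 63 OR genes were higher and 1 lower at an unadjusted p under 0.05 (9.52% beside 1.54% of other genes of that class), with a median of 0.075. Olfr536, the OR gene with the highest mean CPM, was at 116, 117 and 117 CPM in WT and at 138, 140, 131 and 133 CPM in homo libraries. The groups did not overlap, but het-1 and het-3, both at 142 CPM, were as high, and the log2 difference was 0.22 ± 0.0839 (edgeR adjusted p = 1). Of 9 vomeronasal receptor genes tested none had an unadjusted p under 0.05. Of 12 genes of the guanylyl cyclase D necklace neurons 1 did, Ms4a4b, at 0.113 to 0.939 CPM in WT and 0.74 to 1.66 CPM in homo libraries with overlap.

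Genes of supporting and glandular cells differed among lists. Of 20 sustentacular cell markers none had an unadjusted p under 0.05 (median 0.039), and the same held for 17 genes of motile cilia (0.013). The median of the 28 gland secretion genes was 0.299, with the middle 50% between -0.013 and 0.799, and the 5 with an unadjusted p under 0.05 were Dmbt1, Lcn3, Obp2a, Obp2b and Klk14, a kallikrein protease. Klk14 was at 4.58 to 6.34 CPM in WT and 6.37 to 15 CPM in homo libraries. Ltf, lactoferrin, of glands and neutrophils alike, did not overlap either, at 317 to 398 CPM in WT and 510 to 971 CPM in homo libraries, with an unadjusted p of 0.0943. Of 15 genes of microvillous cells and ionocytes 1 was lower, the transcription factor gene Gfi1b (median -0.03).

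Lists of blood, bone and other tissues held the remaining differences. Of 8 erythroid markers 3 were lower at an unadjusted p under 0.05 and the median was -0.441. They included Klf1, a transcription factor of red cell precursors, and Slc4a1. The latter, the anion exchanger of red cells, was at 16.2, 12.9 and 10.4 CPM in WT and at 13.3, 6.66, 4.76 and 5.53 CPM in homo libraries. Here homo-1 lay within the WT range and the other 3 homo libraries below it, and without homo-1 Slc4a1 was called (log2 difference -1.23, edgeR adjusted p = 0.02) and the median of the list was -0.731. Of 12 neutrophil and marrow granule markers 2 were lower, S100a8 and S100a9 (median -0.063), and of 18 macrophage and microglia markers 1 was lower, C1qc, a subunit of complement C1q (-0.061). Of 22 bone and cartilage markers 2 were higher, Bglap3 and Runx2, the transcription factor of osteoblasts (0.076). Of 24 interferon response genes 1 was higher, Ifit3, with a median of 0.227. The lists for B and T lymphocytes (11 genes, 0.198), skeletal muscle (6 genes, 0.114), ensheathing and Schwann cells (16 genes, 0.034) and endothelial cells, fibroblasts and smooth muscle (20 genes, 0.026) held none. Nor did the 10 genes with sex-linked expression, whose median of 0.31 moved with the make-up of the groups, 1 of 3 WT and 2 of 4 homo libraries having Y-linked counts. Some of these medians depended on 1 library. That of immature OSN markers was 0.094 without WT-3, that of macrophage markers 0.071 without WT-2, that of neutrophil markers -0.366 without WT-1 and -0.198 without homo-4, that of bone markers 0.235 without WT-1, that of necklace neuron genes 0.12 without WT-3 and that of sex-linked genes 0.06 without WT-1 and 0.047 without homo-2. Of 19 housekeeping genes 1 was higher, Pgk1, a glycolytic enzyme (log2 difference 0.24 ± 0.0826).

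**Figure D5:**
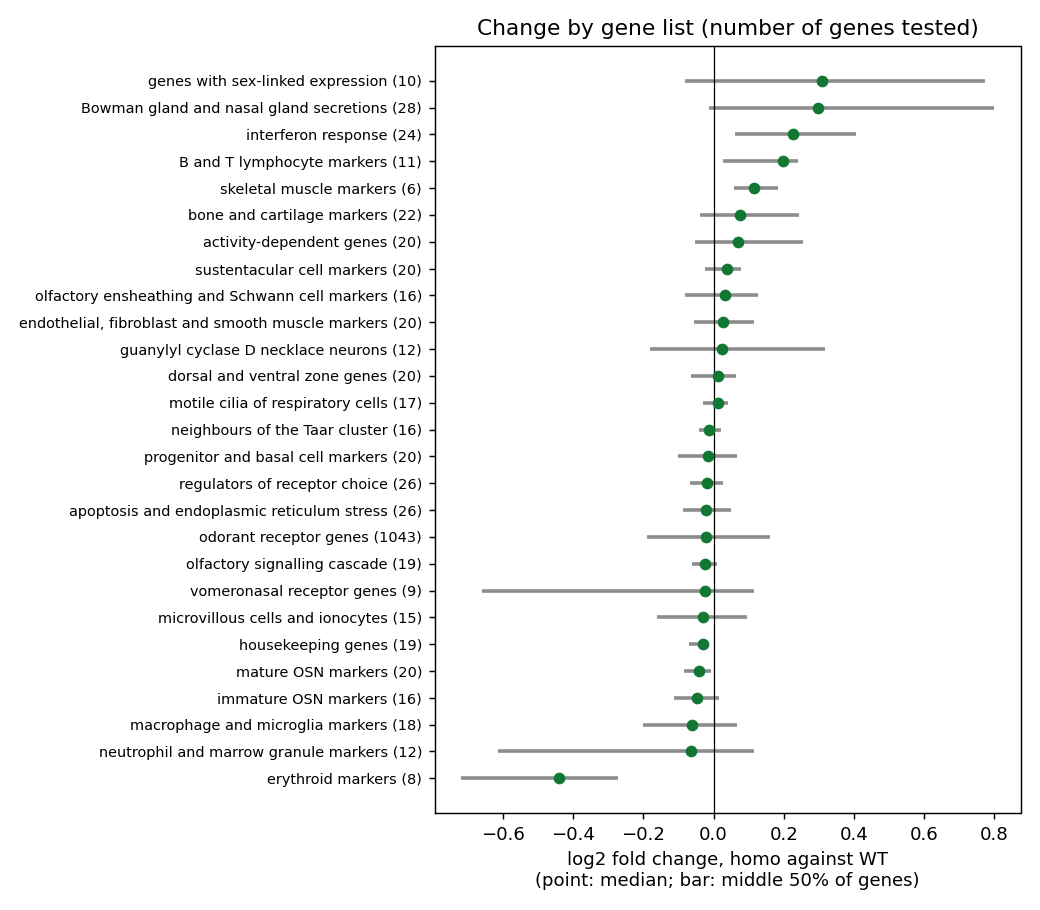
Median log2 fold change of homo against WT (points) and the middle 50% of genes (bars) for the gene lists outside the Taar family, with the number of genes tested in brackets. Most medians lie within 0.1 of 0; erythroid markers (-0.441) lie below, and genes with sex-linked expression (0.31), gland secretions (0.299), interferon response genes (0.227), lymphocyte markers (0.198) and skeletal muscle markers (0.114) above.

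The position of genes relative to the Taar cluster was described next. On chromosome 10 the 777 genes tested outside the family held 5 higher and 8 lower at an unadjusted p under 0.05 (1.67% beside 2.41% over all genes), with a median log2 difference of -0.006. Over the autosomes and the X chromosome this share ran from 1.65% on chromosome 18 to 3.22% on chromosome 2. Within 1 Mb of the cluster, which spans chr10:23920356-24109534, 13 other genes were tested, and 1 had an unadjusted p under 0.05, Arg1, which encodes arginase. It lies 0.806 Mb past the cluster and was at 1.09, 0.665 and 0.687 CPM in WT and 0.473, 0.54, 0.297 and 0.423 CPM in homo libraries (log2 difference -0.91 ± 0.416, edgeR adjusted p = 1). Among 16 tested genes of a list of neighbours it was also the lone gene below that threshold, and their median was -0.013. Stx7, 0.0398 Mb past the cluster, was at 133, 156 and 141 CPM in WT and at 135, 125, 145 and 126 CPM in homo libraries. The groups overlapped, and the 95% interval of its log2 difference ran from -0.3 to 0.07. Slc18b1, a vesicular polyamine transporter 0.0924 Mb before the cluster, differed by -0.1 with an interval from -0.31 to 0.1. Neighbours at lower levels were bounded less closely. The interval ran from -0.68 to 0.67 for Vnn1, 0.015 Mb before the cluster, and from -0.49 to 1.59 for Vnn3, 0.0505 Mb before it. Of the 13 genes within 1 Mb, 9 (69.2%) were bounded within 2-fold and 7 (53.8%) within 1.5-fold. Of 24 genes between 1 and 5 Mb away none had an unadjusted p under 0.05, and of 125 between 5 and 20 Mb 1 did.

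Genes too low to test were counted separately. Of the 7224 rows not tested, 3137 had no count in any library and 4087 had some, and 99.97% of all counts lay in the genes that were tested. The highest of them was BC037156, with 1467 counts in WT-1 and at most 2 in any other library. With at least 10 counts over the 7 libraries, 98 of these rows did not overlap between the genotypes, 58 higher and 40 lower in homo. How many untested rows reached 10 counts was not taken, so no share can be set beside the 3.57% of genes tested. Among the lower ones were Taar8a and Taar8c, with WT counts of 2, 2 and 6 for the former and 10, 3 and 11 for the latter and none in homo mice. Without the filter on low counts, which left 21284 rows to test, the 12 Taar genes given above were called and no other row.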

How the data were processed

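Poly(A)-selected, directional RNA-seq libraries of whole MOE were available from 3 WT, 3 het and 4 homo mice. The authors aligned reads to mm10 and deposited raw counts per gene. The submitters' processing notes name Trimmomatic 0.36, HISAT2 2.1.0, featureCounts of Subread 1.6.2 and DESeq2 1.20.0. How strand and multiply matching reads were handled in counting, and which annotation was used, is not given in the sources used here, so antisense, overlapping and near-identical genes may share reads. A normalized table holding the same counts divided by a constant per library was not used. Of the table's rows, 27 bear dates in place of gene names; 24 of them were tested, and none is named. Some results are not reported here.

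Genes were kept with edgeR's filterByExpr (minimum count 10, minimum total 15). Homo was compared with WT in edgeR 4.0.16 (R 4.3.3) with TMM scaling and the robust quasi-likelihood test, in a fit of genotype over all 10 libraries, with the Benjamini-Hochberg adjustment taken over all 17197 genes. The 95% intervals used the t quantile at each gene's residual degrees of freedom (median 16.5). Errors given with ± are standard errors. Floors are 3 counts per library, or 0.108 to 0.14 CPM, and cover counting error only. Positions are from GENCODE M21 on mm10, found for 96.2% of genes tested as a single position, and sequences from RefSeq (GRCm38.p6).

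Named genes were the Taar genes, the 12 smallest p-values in each direction, in each expression class the 2 smallest, the 10 highest means, in each list the 2 smallest p-values and the highest mean, and the 5 largest folds in each direction at 1 CPM or more without overlap. Others, among them the neuronal and salivary markers, BC037156, Klk14, Ltf, C1qc, Slc18b1, Vnn1, Vnn3, Kdm5d and Eif2s3y, were named after their values were seen. The groups compared, the members and the lists were chosen with earlier results of these data known. Alternatives were DESeq2 1.42.0, limma 3.58.1 on log2 CPM (prior count 2), other scalings, filters and samples, a term for Y-linked counts and a replicate block. A term for, and a fit without, libraries with high neuronal markers were chosen after seeing the data. The analysis was tested on simulated data.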

Additional observations from a re-analysis of the deposited data

Results flagged for a closer look

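In 65 genes the 4 homo libraries were checked for 1 library far from the other 3 (Dixon's criterion, which chance meets in about 1 of 20 groups), and 8 met it. In 4 of these the other libraries were tied at 0, so that a single count meets the criterion and the chance rate does not apply; 4 of the other 61 genes met it. The ties were Taar2 in homo-2 (0.135 CPM), Taar3 and Taar5 in homo-1 (0.0473 CPM each) and Taar6 in homo-4 (0.0352 CPM). Dmbt1, the gland mucin, was at 849 CPM in homo-1 and between 343 and 393 CPM in the other homo libraries. Slc6a12 was at 2.08 CPM in homo-3, beside 0.986 to 1.04 CPM. Scand1 was at 0.765 CPM in homo-2, beside 1.66 to 1.74 CPM. Smr3a was at 1.62 CPM in homo-2, beside 0.552 to 0.71 CPM.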

How the results depend on the processing

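Calls outside the Taar family were 0 with edgeR, with 402 genes at an unadjusted p under 0.05, and 2 with DESeq2 (S100a8 and Lmbr1l). Among listed genes DESeq2 called 1. Same-numbered WT and homo libraries correlated at -0.118, 0.0154 and -0.115, so replicate numbers showed no pairing by this measure. It cannot exclude that single genes follow the number. Dmbt1 fell from replicate 1 to 3 in every genotype (202, 154 and 109 CPM in WT, 171, 152 and 109 CPM in het, 849, 393 and 343 CPM in homo libraries). Other genes, such as Sez6l, did not, and how many did was not counted. In a fit with a replicate block, homo-4 was alone in its block and added nothing to the comparison with WT. With a replicate block, 19 genes were called in all, 7 outside the family (among them Obp2a, BC048546, Obp2b, Dmbt1, Bglap3 and Nupr1, with adjusted p of 0.000216 for Dmbt1, 0.00017 for Obp2a, 0.000192 for Obp2b and BC048546 and 0.00784 for Bglap3), 4 of them on lists, with 878 (5.11%) at an unadjusted p under 0.05 and 87.5% bounded within 2-fold. With a term for the inhibitory neuron marker level, 22 genes were called, 10 outside the family (Car6, Prom2, Pnliprp1, Scgb1b27, Klk14, S100a8, Bglap3, Scgb2b27, Csn3 and Car12), 3 of them on lists, with 1237 at an unadjusted p under 0.05, 84.4% within 2-fold and 63.9% within 1.5-fold. Without homo-1, homo-3, homo-4 and het-3 together, the values were 27, 17, 2, 1437, 73.2% and 44.3%, and Taar3 and Taar8b were not called (adjusted p of 0.135 and 0.0923). The causes of these changes were not tested.

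Leaving out 1 library gave 0 to 2 calls outside the family (Ifit3 and AW112010 without WT-2, Lmbr1l without WT-3, Slc4a1 without homo-1, Gad1 without homo-2), 0 to 1 on lists, 317 to 685 genes at an unadjusted p under 0.05, a median log2 difference of -0.008 to 0.002, and shares of 84.6% to 88% within 2-fold and 66.9% to 72.8% within 1.5-fold. The share within 2-fold was 90.3% with limma, and with no filter on low counts the shares were 71.8% and 59.7%. With a mean of at least 1 CPM they were 96.1% and 80.4%, and 10 Taar genes were called because fewer were tested. With the 7 WT and homo libraries alone they were 89.9% and 74.6%. In the class from 0.1 to 1 CPM, 14.9% were within 2-fold with the 7 libraries and 8.2% with DESeq2.

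The log2 difference changed sign for Cyp2a5 (-0.03 to 0.1 when 1 library was left out), for Bpifa2 (-8.69 to 0.28) and Smr3a (-6.48 to 0.54), both above 0 without WT-1, and for Gad1 (-0.56 without the 4 libraries). With the marker term and without the 4 libraries it was -0.46 and -1.81 for Slc6a11, -0.33 and -1.81 for Gria1, and -0.63 and -1.34 for Th. Gad1, Slc6a11, Gria1 and Th are themselves among the markers that make up the term and by which the 4 libraries were picked. Lower values for them in these fits thus follow from the choice. Over 72 named genes, 1240 of 1269 alternative values kept direction and side of the threshold, 16 gained a call and 2 lost it. Of 270 alternative values of the 27 list medians 26 moved by more than the spread between homo libraries, among them that of vomeronasal receptor genes (-0.32 without WT-2). Intervals were widest in the lowest class; the part of depth in this was not tested.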
